A study of Homo sapiens with 18 samples.

Results

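The S100 proteins and the annexins are the calcium-binding families described here, in DU145 and CWR22Rv1, established human prostate cancer cell lines. Members were the genes whose symbol names an S100 family protein (S100A, S100B, S100G, S100P or S100Z) or a numbered annexin (ANXA) and that had a probe set carrying a single gene symbol. This gave 31 members, 20 S100 genes and 11 annexins, of the 19775 genes represented on the array. When a gene had several such probe sets, the brightest by its mean over all arrays stood for it, which was a choice for 13 of the 31. ANXA8 shared its probe set with other symbols and was not a member.

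Cells were transfected with a scrambled siRNA (the control), with siRNA to Stat3, or with siRNA to Stat5a and Stat5b together, using Lipofectamine, and were taken 48 h later for total RNA. STAT3, STAT5A and STAT5B encode transcription factors that cytokine and growth factor receptors activate. Affymetrix arrays were run for 6 groups of 3, 18 arrays in all: DU145 with scrambled, Stat3 or Stat5a/b siRNA, and CWR22Rv1 with the same agents. The controls thus carried transfection reagent and siRNA too, no group was left untransfected, each line is represented by 1 cell line, and no genotype other than that of the line was given. Samples were run in triplicate without pooling, but whether each came from its own culture is not stated, so the p-values speak only for the scatter among these samples, which may be technical.

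S100 proteins are small EF-hand proteins that mostly form dimers. Calcium opens a binding surface on them for target proteins, and some are released from cells and bind the receptors AGER and TLR4. Annexins carry repeated domains that bind acidic phospholipids of membranes when calcium rises, and several of them hold an S100 dimer: S100A10 binds ANXA2, S100A11 binds ANXA1 and S100A6 binds ANXA11. Most S100 genes lie in a cluster on chromosome 1, while the annexin genes are scattered.

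The siRNA targets were read first, as log2 expression values, in which a difference of 1 is a doubling. STAT3 was at 10.91, 10.96 and 10.82 in the DU145 control arrays, where Stat3 siRNA left it at 9.45, 9.19 and 9.20. In CWR22Rv1 it was at 7.40, 7.21 and 7.24 against 6.04, 6.31 and 6.11. STAT5B was at 7.95, 8.01 and 8.16 in the DU145 controls and at 6.80, 6.63 and 6.61 with Stat5a/b siRNA, and at 8.0, 7.87 and 7.95 against 7.17, 6.90 and 7.04 in CWR22Rv1. Both transcripts fell in both lines with their siRNA, with no overlap of arrays. STAT5A was at 6.12 to 6.18 in the DU145 controls and at 5.75 to 5.92 with Stat5a/b siRNA, and its change passed the test in neither line (adjusted p = 0.101 and 0.146). Tests were made with limma on all 19775 genes, with Benjamini-Hochberg adjustment, and an adjusted p under 0.05 is meant wherever a gene is said to be called, higher, lower, to have risen or to have fallen. A figure after ± is the standard error of a log2 difference between groups of 3 arrays, and it pools the spread of all 6 groups.

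Among the lines' marker genes, KRT8, KRT18 and EPCAM of epithelial cells lay between 10.1 and 13 as group means in the controls of both lines. Of 10 measured epithelial and luminal prostate markers, 6 were higher in CWR22Rv1 (KLK2, ACP3, TMPRSS2, FOLH1, CDH1 and EPCAM, with KLK2 by 6.59 ± 0.15), while KRT19 (-1.55 ± 0.062), KRT8 (-0.90 ± 0.10) and KRT18 (-0.43 ± 0.054) were lower there and KLK3, at 6.69 and 6.76, was not called. Of 6 measured basal markers, LAMB3, ITGB4, DST and KRT15 were higher in DU145 (LAMB3 at 10.2 against 4.74), KRT14 was higher in CWR22Rv1 (0.30 ± 0.11) with levels of 2.82 and 3.11, and KRT5 was not called. Of 9 measured leukocyte markers, CD14 was at 6.12 in the DU145 and 4.31 in the CWR22Rv1 controls (-1.81 ± 0.15) and CSF1R at 5.45 and 5.77 (0.32 ± 0.12), and the other 7 were not called, PTPRC being at 3.04 and 3.08 and LYZ at 3.23 and 3.20. LUM, COL3A1 and DCN of 7 fibroblast markers were higher in CWR22Rv1, LUM at 2.56 against 8.12. The shares called were 90% of the epithelial and luminal list, 83.3% of the basal, 22.2% of the leukocyte and 42.9% of the fibroblast list. Of all genes, 56.9% were called between the controls. Detection calls were not used here, so how far a low value lies above background is unknown.

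The 5 members with the largest called Stat5a/b siRNA differences in either line were S100P, S100A4, S100A3, ANXA1 and ANXA2, so the 250 bases before their transcription start are shown. They come from RefSeq on GRCh38.p14: chr4:6693628-6693877 on the plus strand for S100P, chr1:153545807-153546056 on the minus strand for S100A4, chr1:153549259-153549508 on the minus strand for S100A3, chr9:73151615-73151864 on the plus strand for ANXA1 and chr15:60397987-60398236 on the minus strand for ANXA2. Each is written 5′ to 3′ towards the gene. Capitals mark matches to TTCNNNGAA or TTCNNNNGAA (spacings of the palindrome that STAT dimers recognise), TGANTCA (the AP-1 element) or TATAAA (the TATA box), searched on both strands.
S100P: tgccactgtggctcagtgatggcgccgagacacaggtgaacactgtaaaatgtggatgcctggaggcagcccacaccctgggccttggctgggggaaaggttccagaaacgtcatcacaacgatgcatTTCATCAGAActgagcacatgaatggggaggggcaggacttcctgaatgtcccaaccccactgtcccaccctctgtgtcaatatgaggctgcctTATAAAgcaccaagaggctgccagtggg
S100A4: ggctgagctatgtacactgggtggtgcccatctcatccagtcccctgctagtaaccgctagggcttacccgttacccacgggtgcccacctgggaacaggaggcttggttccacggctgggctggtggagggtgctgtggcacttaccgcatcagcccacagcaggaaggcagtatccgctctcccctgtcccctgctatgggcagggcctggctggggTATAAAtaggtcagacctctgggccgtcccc
S100A3: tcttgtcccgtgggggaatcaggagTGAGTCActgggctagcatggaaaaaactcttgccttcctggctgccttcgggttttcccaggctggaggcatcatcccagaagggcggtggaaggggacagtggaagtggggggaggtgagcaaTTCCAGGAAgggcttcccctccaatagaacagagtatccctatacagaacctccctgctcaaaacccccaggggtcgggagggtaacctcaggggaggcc
ANXA1: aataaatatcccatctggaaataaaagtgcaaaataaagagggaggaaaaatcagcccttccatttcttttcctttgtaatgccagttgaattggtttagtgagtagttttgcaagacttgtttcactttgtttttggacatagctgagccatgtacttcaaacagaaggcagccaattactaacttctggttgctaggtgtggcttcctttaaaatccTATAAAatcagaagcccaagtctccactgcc
ANXA2: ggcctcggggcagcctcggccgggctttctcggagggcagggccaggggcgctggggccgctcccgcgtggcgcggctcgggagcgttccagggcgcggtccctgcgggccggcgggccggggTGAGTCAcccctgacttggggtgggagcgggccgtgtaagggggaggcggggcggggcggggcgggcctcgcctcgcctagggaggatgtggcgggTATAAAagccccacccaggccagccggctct
The S100P window holds a TTCNNNNGAA match whose first base lies 122 bases before the start and a TATAAA match at 28. S100A4 has TATAAA at 31 and neither STAT spacing. S100A3 has a TTCNNNGAA match at 100 and a TGANTCA match at 225, and no TATAAA. ANXA1 has TATAAA at 31, and a TTCNNNGAA match that begins at base 12 after the start, outside the window shown. ANXA2 has TGANTCA at 127 and TATAAA at 31.

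Promoter entries (250 bases before to 50 after the start) were found by symbol for 29 of the 31 members, 40 entries in all. TTCNNNGAA occurred in 4 of these 40, those of ANXA1, S100A3, S100A5 and S100Z, and in 7.66% of all 35116 promoters. TTCNNNNGAA occurred in 3, those of S100A10, S100A5 and S100P, against 6.44% of all, and TGANTCA in 5 against 7.71%. GAAANNGAAA, an interferon response element, was in 0 of the 40 and in 3.57% of all. TATAAA was in 15 of the 40, from 14 genes, and in 11.5% of all. The motifs can overlap one another, and a match is a description of the letters only.

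Between the control arrays of the lines, the families were mostly lower in CWR22Rv1. Of the 31 members, 19 were lower and 1, S100P, was higher, where 56.9% of all genes were called, 30% higher and 27% lower. The median difference of CWR22Rv1 minus DU145 was -0.59 over the members and 0.033 over all genes. A call with a difference of at least 2-fold was made for 13 of the 31 members and for 3882 of all 19775 genes. Arrays of the controls did not overlap for 21 of the 31, and for 63.5% of all genes. With 1 line of each kind, these are differences between DU145 and CWR22Rv1 only. In bulk RNA, fewer cells expressing a gene and less RNA per cell cannot be told apart.

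**Figure D1:**
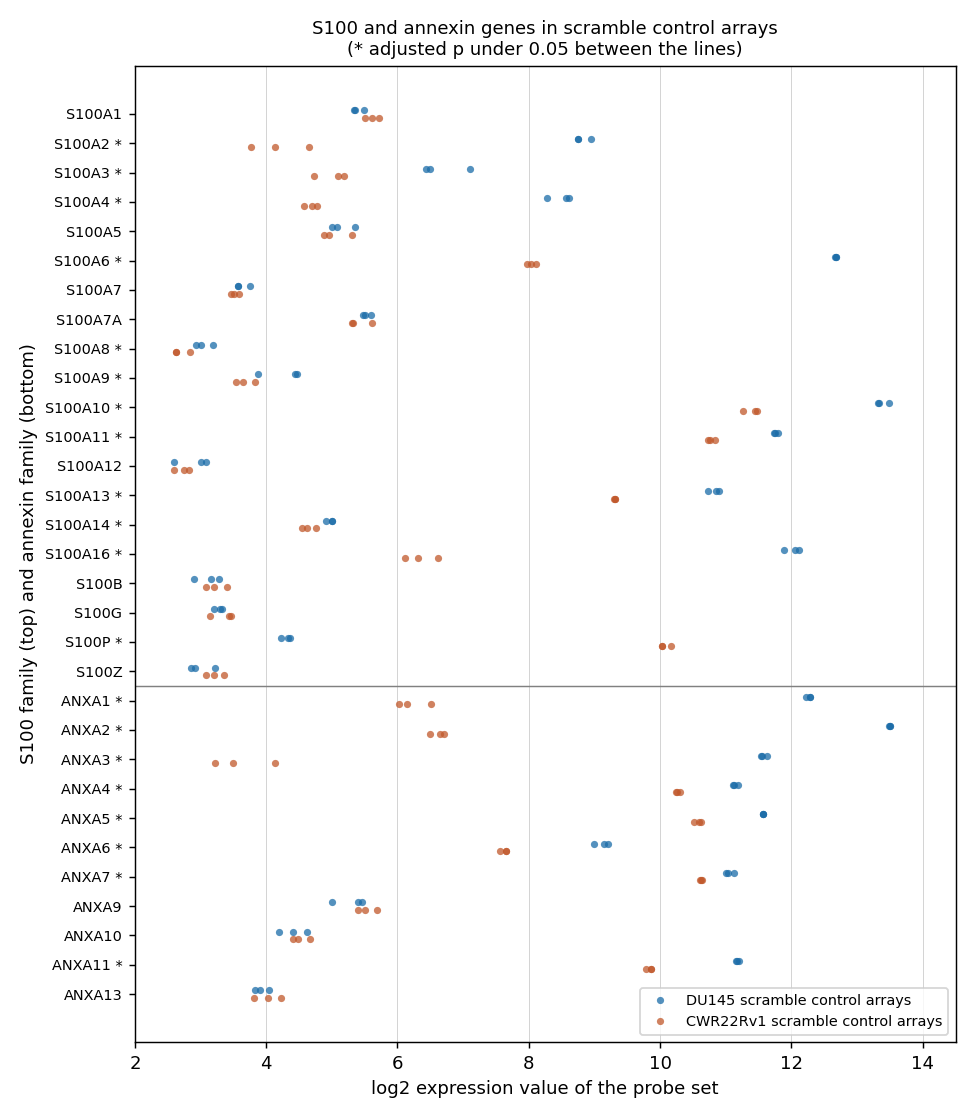
Log2 expression value (x axis) of each S100 gene (upper block) and annexin (lower block) in the 3 scramble control arrays of DU145 and of CWR22Rv1, 1 point per array; an asterisk marks an adjusted p under 0.05 between the lines. ANXA3, ANXA2, ANXA1 and S100A16 lie more than 5 log2 units higher in DU145, S100P lies 5.78 higher in CWR22Rv1, and most members under a value of 6 lie close together in both lines.

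The widest gap was that of ANXA3, an annexin of neutrophils and epithelia, at 11.55, 11.54 and 11.63 in the DU145 controls and 4.14, 3.50 and 3.22 in those of CWR22Rv1 (-7.95 ± 0.19, adjusted p = 1.51e-15). ANXA2, which with S100A10 gathers plasminogen and its activator on the cell surface, was at 13.51, 13.48 and 13.50 against 6.71, 6.49 and 6.64 (-6.88 ± 0.087, adjusted p = 1.13e-18). ANXA1, the glucocorticoid-induced ligand of the formyl peptide receptors, was at 12.28, 12.28 and 12.22 against 6.51, 6.03 and 6.14 (-6.03 ± 0.11, adjusted p = 4.33e-17). In each of these the array groups were far apart. The ANXA2 probe set can hybridise with related transcripts: a probe set of the processed copy ANXA2P2 showed the same direction, with group means of 11.2 and 5.56, and the 2 cannot be told apart here.

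Among the S100 genes, S100A16 was at 12.06, 11.89 and 12.11 in DU145 and at 6.32, 6.62 and 6.11 in CWR22Rv1 (-5.67 ± 0.18, adjusted p = 5.67e-14). S100A6 (calcyclin), a cytosolic protein that binds CACYBP and ANXA11, was at 12.69, 12.66 and 12.68 against 8.11, 8.04 and 7.97 (-4.63 ± 0.053, adjusted p = 5.06e-19). S100A2, a protein of basal epithelia, was at 8.94, 8.74 and 8.75 against 3.77, 4.14 and 4.65 (-4.63 ± 0.18, adjusted p = 5.27e-13). All 3 were lower in every CWR22Rv1 control array. S100A4, which binds non-muscle myosin and is known from metastasis studies, was at 8.56, 8.61 and 8.27 against 4.69, 4.78 and 4.58 (-3.80 ± 0.16, adjusted p = 2.07e-12). S100P, a placental S100 that binds ezrin and AGER, ran the other way, at 4.22, 4.36 and 4.32 in DU145 and 10.03, 10.17 and 10.04 in CWR22Rv1 (5.78 ± 0.073, adjusted p = 1.13e-18).

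Another 12 members were lower in CWR22Rv1 with gaps of under 2 log2 units. They were S100A10 (-1.98 ± 0.067), S100A3 (-1.68 ± 0.17), S100A13 (-1.52 ± 0.067), ANXA6 (-1.49 ± 0.075), ANXA11 (-1.33 ± 0.069), ANXA5 (-0.99 ± 0.052), S100A11 (-0.99 ± 0.053), ANXA4 (-0.88 ± 0.049), S100A9 (-0.59 ± 0.15), ANXA7 (-0.43 ± 0.055), S100A8 (-0.35 ± 0.12) and S100A14 (-0.33 ± 0.070). The S100A8 call (adjusted p = 0.0160) was lost without DU145 control replicate 2 (0.0773) or CWR22Rv1 control replicate 2 (0.0582) or 3 (0.0565), and under 3 other alternatives. Over all settings, those that kept the call included, its adjusted p ran from 0.00987 to 0.611. A dimmer ANXA6 probe set showed 0.16 in place of -1.49, and a dimmer S100A8 probe set 0.24 in place of -0.35. The ANXA7 call was lost with its second probe set (adjusted p = 0.101), which read 10.61, 10.68 and 10.56 in DU145 against 10.52, 10.44 and 10.47. The other 11 members, S100A1, S100A5, S100A7, S100A7A, S100A12, S100B, S100G, S100Z, ANXA9, ANXA10 and ANXA13, did not pass the test.

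Of the siRNA comparisons with control, Stat5a/b siRNA in DU145 gave the most calls. There 3 members rose and 8 fell, 11 of 31, where 24.3% of all genes were called, 11.8% higher and 12.5% lower. The members' share, 35.5%, was larger, but the excess is a few genes and was not tested. With the DU145 arrays fitted alone, 8 members were called, and 2877 of all genes. S100A4, S100A3, S100A2, S100A6, S100A10 and S100A13 fell, as did ANXA6 and ANXA11, while S100P, ANXA1 and ANXA5 rose. Of these, S100A6, ANXA6, ANXA1 and ANXA5 were called in the same direction with Stat3 siRNA, against the same control arrays. Neither they nor S100A2 were called between Stat5a/b and Stat3 siRNA in DU145. The median difference was -0.061 over the members and 0.011 over all genes, and arrays did not overlap for 17 of the 31, against 34.4% of all genes.

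**Figure D2:**
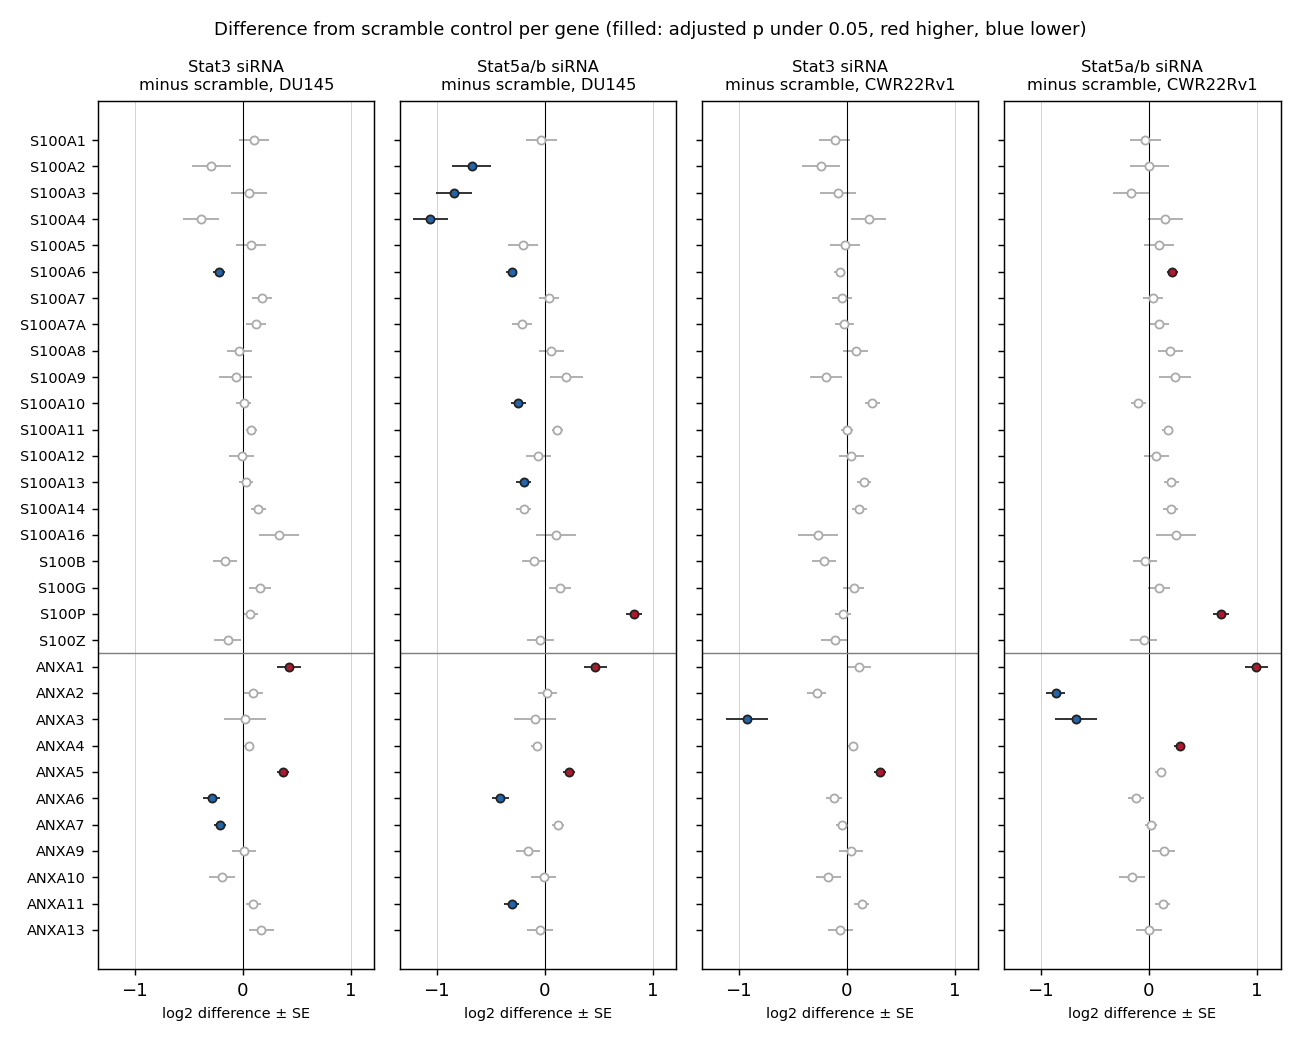
Log2 difference from the line's scramble control (x axis, point ± SE, 3 arrays against 3) for each member in 4 panels, Stat3 and Stat5a/b siRNA in DU145 and in CWR22Rv1; filled points have an adjusted p under 0.05, red higher and blue lower. The Stat5a/b panel of DU145 holds the most filled points, 11 of 31, and the Stat3 panel of CWR22Rv1 the fewest, 2 of 31.

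S100A4 fell the most, from 8.56, 8.61 and 8.27 in the controls to 7.56, 7.60 and 7.12 with Stat5a/b siRNA (-1.06 ± 0.16, adjusted p = 0.000173), which left 48.1% of its control level. S100A3, a protein of hair cuticle cells, was at 6.49, 6.44 and 7.11 in the controls and at 6.17, 5.68 and 5.66 after the siRNA (-0.84 ± 0.17, adjusted p = 0.00142). S100A2 was at 8.94, 8.74 and 8.75 against 8.26, 8.17 and 7.98 (-0.68 ± 0.18, adjusted p = 0.0106). Each of these genes was lower in all 3 Stat5a/b arrays than in any control array, with the third S100A3 control array well above the other controls. Their calls were kept under every alternative and with each array left out.

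S100A6 had close replicates, 12.69, 12.66 and 12.68 in the controls and 12.39, 12.40 and 12.31 after Stat5a/b siRNA (-0.31 ± 0.053, adjusted p = 0.000524). A dimmer S100A6 probe set gave -0.47 with an adjusted p of 0.290, and the alternatives ran from 2.11e-05 to 0.290. S100A10, the annexin partner whose own EF hands no longer bind calcium, was at 13.33, 13.32 and 13.48 against 13.15, 13.17 and 13.09 (-0.24 ± 0.067, adjusted p = 0.0140). Its arrays were separate too, but the call was lost without DU145 control replicate 3 (-0.19, adjusted p = 0.0611) and with the DU145 arrays fitted alone (0.0619), over a range of 0.000791 to 0.0619. Its second, dimmer probe set fell by more, -0.89 (adjusted p = 0.0117). S100A13, which takes part in the export of FGF1 and IL1A, was at 10.89, 10.85 and 10.73 against 10.75, 10.64 and 10.50 (-0.19 ± 0.067, adjusted p = 0.0449). Here the groups overlapped, and the call was lost under 5 of 8 alternatives and without control replicate 1 (0.164) or 2 (0.111) or Stat5a/b replicate 2 (0.0865) or 3 (0.166), with adjusted p between 0.00912 and 0.781.

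S100P rose in DU145 from 4.22, 4.36 and 4.32 to 5.04, 5.11 and 5.23 (0.82 ± 0.073, adjusted p = 7.74e-07), a level 177% of control. It was the only S100 gene called higher there, its arrays did not overlap, and no alternative ended the call. Its values remained near the array medians of 5.16 to 5.20.

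Of the annexins in DU145, ANXA11, which tethers RNA granules to lysosomes, fell from 11.15, 11.21 and 11.16 to 10.81, 10.78 and 11.01 (-0.31 ± 0.069, adjusted p = 0.00369). ANXA6, a regulator of membrane cholesterol and trafficking, fell from 9.20, 9.15 and 8.99 to 8.73, 8.79 and 8.58 (-0.41 ± 0.075, adjusted p = 0.000772). Neither overlapped its controls. ANXA1 rose from 12.28, 12.28 and 12.22 to 12.79, 12.66 and 12.73 (0.47 ± 0.11, adjusted p = 0.00440). ANXA5, the phosphatidylserine binder used to stain dying cells, rose from 11.57, 11.57 and 11.56 to 11.81, 11.75 and 11.81 (0.22 ± 0.052, adjusted p = 0.00461). Both rose in every array.

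Dimmer probe sets of these annexins did not all follow. One of ANXA1 moved by -0.57 (adjusted p = 0.0342), so that the mean over its probe sets was -0.053 (0.806; range over the alternatives 0.000769 to 0.806). One of ANXA6 moved by 0.23 and one of ANXA11 by 0.11, neither called (the ANXA11 range being 0.000294 to 0.502), and the ANXA6 call was lost with the mean over probe sets (-0.090, adjusted p = 0.359; range 0.000149 to 0.359). The ANXA5 call was lost with the DU145 arrays fitted alone (0.0647; range 0.000171 to 0.0647).

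**Figure D3:**
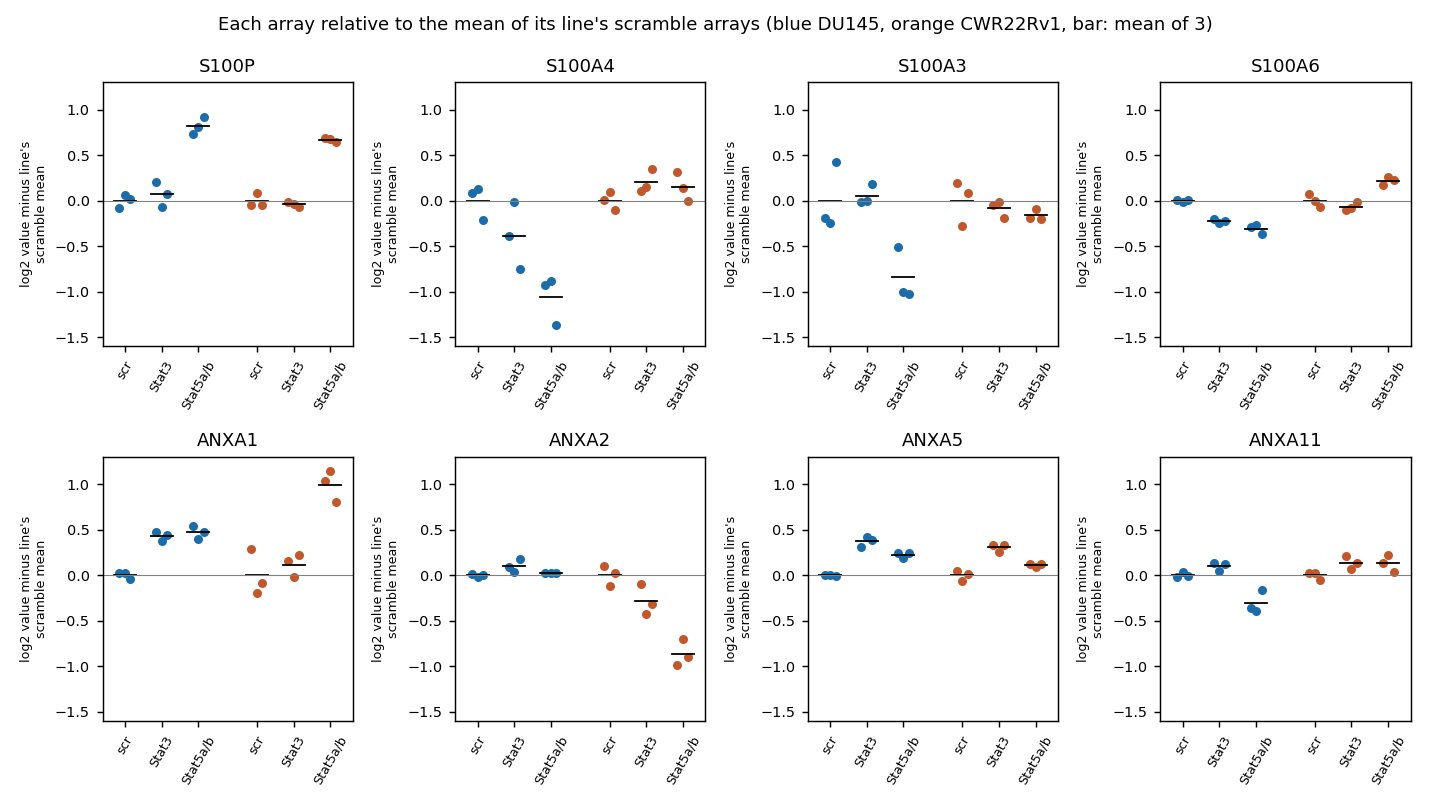
Log2 value of each array minus the mean of its line's 3 scramble arrays (y axis), by siRNA, for members whose level moved with Stat3 or Stat5a/b siRNA; blue points are DU145, orange points CWR22Rv1 and bars the means of 3. S100P is higher with Stat5a/b siRNA in all 3 arrays of each line, S100A4 is lower with it in DU145 and overlaps the controls in CWR22Rv1, and ANXA2 is lower with it in CWR22Rv1 and close to the controls in DU145.

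In CWR22Rv1, Stat5a/b siRNA gave 4 members called higher and 2 lower, 6 of 31 or 19.4%, where 6.46% of all genes were called, 3.16% higher and 3.3% lower. S100P, ANXA1, ANXA4 and S100A6 rose, and ANXA2 and ANXA3 fell. The median was 0.091 over the members and 0.024 over all genes, and arrays did not overlap for 11 of the 31, against 31.1% of all genes. The fit pools the spread of both lines, whose controls had a median SD over genes of 0.11 (DU145) and 0.072 (CWR22Rv1). Over the members alone the order was the other way, 0.088 (DU145) and 0.12 (CWR22Rv1). With CWR22Rv1 fitted alone, 6 members and 2372 genes were called, where the pooled fit called 1277 genes. With DU145 fitted alone, Stat5a/b siRNA gave 8 members and 2877 genes, where the pooled fit called 4805. The shares called in each line thus depend on the pooling.

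S100P rose from 10.03, 10.17 and 10.04 to 10.77, 10.76 and 10.73 (0.67 ± 0.073, adjusted p = 2.68e-05), a level 159% of control. ANXA1 rose from 6.51, 6.03 and 6.14 to 7.26, 7.37 and 7.03 (0.99 ± 0.11, adjusted p = 2.82e-05), a level 199% of control. ANXA4, an annexin of epithelial apical membranes, rose from 10.30, 10.26 and 10.24 to 10.55, 10.58 and 10.53 (0.29 ± 0.049, adjusted p = 0.00185). All 3 were higher in every Stat5a/b array than in any control. The calls of S100P and ANXA4 were kept under every alternative, and a dimmer ANXA1 probe set gave 0.11 (adjusted p = 0.887; range over the alternatives 3.70e-07 to 0.887). S100A6 rose from 8.11, 8.04 and 7.97 to 8.21, 8.30 and 8.27 (0.22 ± 0.053, adjusted p = 0.0215). Its call was lost without control replicate 2 (0.0702) or 3 (0.122) or Stat5a/b replicate 2 (0.102) or 3 (0.0755), its dimmer probe set stood at -0.00022, and the lowest adjusted p over the alternatives was 0.00320.

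ANXA2 fell in CWR22Rv1 from 6.71, 6.49 and 6.64 to 5.63, 5.91 and 5.72 (-0.86 ± 0.087, adjusted p = 1.40e-05), to 55.0% of control, with the arrays apart. Its other probe sets gave -0.97 (adjusted p = 3.00e-05), -0.54 (0.0909) and, for the dimmest, 0.040 (0.970). ANXA2P2 differed by -0.15 ± 0.20 in the same comparison (adjusted p = 0.790). ANXA3 was at 4.14, 3.50 and 3.22 in the controls and at 3.02, 2.96 and 2.84 with Stat5a/b siRNA (-0.68 ± 0.19, adjusted p = 0.0477). Its first control array stands above the other controls, and without it the difference was -0.42 (adjusted p = 0.237). The ANXA3 call was also lost without control replicate 2 (0.0791) or any 1 of the Stat5a/b replicates (0.0903, 0.123 and 0.153) and with CWR22Rv1 fitted alone (0.126), over a range of 0.0173 to 0.237.

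Called in both lines with Stat5a/b siRNA were 3 members: S100P and ANXA1 rose in both, and S100A6 fell in DU145 and rose in CWR22Rv1. The share of all genes called in both lines was not counted for either siRNA. The difference of the Stat5a/b effect between the lines (CWR22Rv1 minus DU145) was called for 8 of the 31 members, 7 higher and 1 lower, where 11.9% of all genes were called, 6.75% higher and 5.17% lower. S100A4 differed by 1.21 ± 0.23 (adjusted p = 0.00310), and its CWR22Rv1 arrays, at 4.69, 4.78 and 4.58 in the controls and 5.0, 4.83 and 4.68 with the siRNA, overlapped. S100A6 differed by 0.52 ± 0.076 (0.000431), S100A13 by 0.40 ± 0.095 (0.0110), S100A14 by 0.40 ± 0.10 (0.0162) and ANXA11 by 0.44 ± 0.098 (0.00849). For ANXA2 the difference was -0.88 ± 0.12 (0.000330), with DU145 arrays at 13.51, 13.48 and 13.50 in the controls and 13.51, 13.52 and 13.52 with the siRNA. ANXA4 differed by 0.36 ± 0.070 (0.00348) and ANXA1 by 0.52 ± 0.15 (0.0354).

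The S100P rises did not pass the test of a difference between the lines (-0.15 ± 0.10, adjusted p = 0.388), with a 95% interval of -0.37 to 0.066. S100A2 (0.68 ± 0.25, adjusted p = 0.0942) and S100A3 (0.68 ± 0.24, adjusted p = 0.0735), which fell in DU145 and were not called in CWR22Rv1, did not pass it either. S100A2 passed it without CWR22Rv1 control replicate 3 (0.0149), and S100A3 with a trended robust prior (0.0455) and without DU145 control replicate 2 (0.0486) or Stat5a/b replicate 1 (0.0243). The values of S100A2 in CWR22Rv1 were low throughout, 3.76 to 4.65. STAT5B itself fell by less in CWR22Rv1, a difference of 0.45 ± 0.13 (adjusted p = 0.0312), and the part of this in the members' differences was not tested. Leaving out an array ended the ANXA1 call in 8 of 12 cases, with adjusted p between 0.0556 and 0.0952 in those, and its dimmer probe set gave 0.68 with an adjusted p of 0.128 (lowest over the alternatives 0.00466). With dimmer probe sets the calls of S100A6 (0.576), S100A13 (0.933), ANXA2 (0.207 and 0.585) and ANXA11 (0.135 and 0.918) were lost, and the lowest adjusted p of these over the alternatives were 8.36e-06, 0.00155, 5.70e-06 and 0.000763. The S100A14 call was lost with a mean-dependent trend and robust prior (0.0700; range 0.00869 to 0.0700).

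Along chromosome 1, RefSeq on GRCh38.p14 places 17 members in the order ANXA9, S100A10, S100A11, S100A9, S100A12, S100A8, S100A7A, S100A7, S100A6, S100A5, S100A4, S100A3, S100A2, S100A16, S100A14, S100A13 and S100A1. From S100A9 to S100A1 no other protein-coding gene lies between neighbouring members, while 47 lie between S100A11 and S100A9 and 35 between ANXA9 and S100A10. With Stat5a/b siRNA in DU145, S100A6, S100A4, S100A3 and S100A2, which stand almost side by side, fell, and S100A5 within that stretch did not pass the test (-0.21). Next to them, S100A16 was at 0.10 and S100A14 at -0.19, neither called, though S100A14 was with quantile (adjusted p = 0.0400) or cyclic loess normalization (0.0477) and with dim genes left out (0.0338). In CWR22Rv1, S100A6 alone of the 17 was called, and it rose. That call was kept in 2 of the 6 fits with an array left out. S100A13, not called there, was at 9.49, 9.55 and 9.50 with Stat5a/b siRNA and at 9.29, 9.31 and 9.31 in the controls (0.21).

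**Figure D4:**
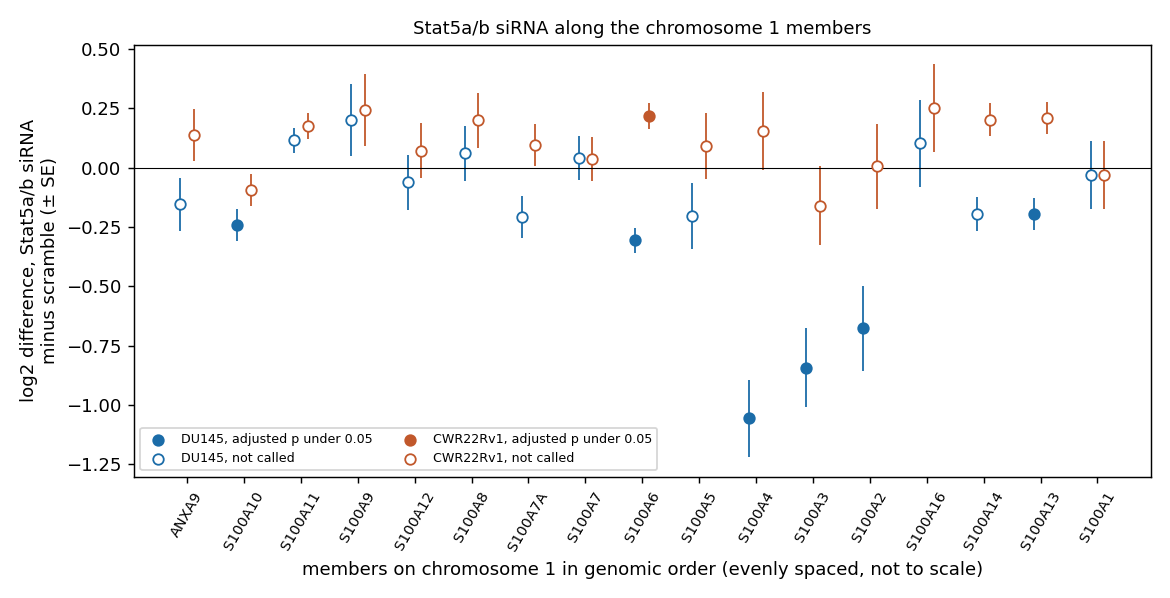
Log2 difference between Stat5a/b siRNA and scramble control (y axis, ± SE) for the 17 chromosome 1 members in genomic order, evenly spaced and not to scale; filled points have an adjusted p under 0.05. In DU145 the called points are S100A10, S100A6, S100A4, S100A3, S100A2 and S100A13, all below 0, and in CWR22Rv1 the 1 called point is S100A6, above 0.

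Stat3 siRNA in DU145 gave 2 members called higher and 3 lower, 5 of 31 or 16.1%, where 15.8% of all genes were called, 7.51% higher and 8.25% lower. The share is near the background, and arrays did not overlap for 12 of the 31, against 26.2% of all genes. ANXA5 rose from 11.57, 11.57 and 11.56 to 11.87, 11.99 and 11.95 (0.37 ± 0.052, adjusted p = 0.000109). ANXA1 rose from 12.28, 12.28 and 12.22 to 12.73, 12.64 and 12.70 (0.43 ± 0.11, adjusted p = 0.0119). S100A6 fell from 12.69, 12.66 and 12.68 to 12.48, 12.43 and 12.45 (-0.22 ± 0.053, adjusted p = 0.00888). In all 3 genes the arrays were apart. ANXA6, at 8.92, 8.82 and 8.73 after the siRNA, fell by 0.29 (SE 0.075, adjusted p = 0.0142), and ANXA7, a membrane-fusing annexin also called synexin, fell from 11.01, 11.03 and 11.13 to 10.86, 10.83 and 10.84 (-0.21 ± 0.055, adjusted p = 0.0142). S100A4, at 8.10, 8.47 and 7.73, overlapped its controls (-0.39 ± 0.16, adjusted p = 0.131), and was called without Stat3 replicate 2 (0.0223). With the replicate number as a block, which pairs the arrays of this comparison, S100A4 was called too (-0.39 ± 0.10, adjusted p = 0.0241).

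The ANXA5 call was kept throughout. With the DU145 arrays fitted alone, S100A6 (adjusted p = 0.0912), ANXA6 (0.0985) and ANXA7 (0.143) were not called. ANXA6 also lost its call without control replicate 1 (0.0672) or 2 (0.0504) or Stat3 replicate 3 (0.0661), over a range of 0.00234 to 0.282, and ANXA7 without control replicate 3 (0.0614), over 0.00137 to 0.475. Both calls were lost with the gene's other probe set too. The dimmer probe set of ANXA1 moved by -0.40 (adjusted p = 0.194), which brought the mean over its probe sets to 0.014 (adjusted p = 0.962; range 0.00259 to 0.962). The S100A6 range was 0.00117 to 0.808, the highest with its dimmer probe set.

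In CWR22Rv1, Stat3 siRNA gave 2 of 31 members called, 6.45%, where 4.77% of all genes were called, 2.75% higher and 2.02% lower, and no S100 gene was among them by limma (2 of the 20 had an unadjusted p under 0.05). ANXA5 rose from 10.62, 10.51 and 10.59 to 10.90, 10.83 and 10.91 (0.31 ± 0.052, adjusted p = 0.00248), and was thus the 1 member called in both lines with this siRNA. ANXA3 fell from 4.14, 3.50 and 3.22 to 2.83, 2.22 and 3.04 (-0.92 ± 0.19, adjusted p = 0.0106). Both were outside the range of their controls, and the ANXA5 call was kept under every alternative. The ANXA3 call was lost without Stat3 replicate 2 (-0.68, adjusted p = 0.0513) and with the CWR22Rv1 arrays fitted alone (0.0506), the lowest being 0.00496. S100A10 stood at 11.68, 11.57 and 11.64 against 11.27, 11.45 and 11.47 (0.24 ± 0.067, adjusted p = 0.0558) and was called under 5 alternatives, with adjusted p of 0.00496 to 0.0449 in those.

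No member was called by limma for a difference between the lines in the Stat3 siRNA effect (5 of 31 had an unadjusted p under 0.05), where 3% of all genes were, 1.82% higher and 1.18% lower. The values largest in size were those of ANXA3 (-0.94 ± 0.27, adjusted p = 0.0774), S100A16 (-0.60 ± 0.26, adjusted p = 0.250) and S100A4 (0.59 ± 0.23, adjusted p = 0.198). ANXA3 was called without CWR22Rv1 control replicate 3 (0.0394) or Stat3 replicate 3 (0.0486), and S100A4 with the replicate number as a block (0.0479). The ANXA5 rises differed by -0.064 ± 0.074 between the lines (adjusted p = 0.730).

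The knockdowns were also compared with each other. In DU145, 2 members were higher and 7 lower with Stat5a/b than with Stat3 siRNA, 9 of 31 or 29%, where 22.1% of all genes were called, 11% higher and 11.2% lower. Arrays did not overlap for 16 of the 31, against 30.7% of all genes. S100A3 (-0.90 ± 0.17, adjusted p = 0.000931), S100A4 (-0.67 ± 0.16, 0.00678), ANXA11 (-0.40 ± 0.069, 0.000454) and S100A14 (-0.34 ± 0.070, 0.00222) were lower, and S100P (0.75 ± 0.073, 1.69e-06) and ANXA7 (0.34 ± 0.055, 0.000309) were higher. S100A10 (-0.25 ± 0.067), S100A13 (-0.23 ± 0.067) and the psoriasin relative S100A7A (-0.33 ± 0.089) were lower too. S100A14, an epithelial S100, was at 5.23, 5.10 and 5.03 with Stat3 siRNA and 4.75, 4.82 and 4.77 with Stat5a/b siRNA, and S100A7A at 5.52, 5.65 and 5.77 against 5.25, 5.30 and 5.40. The S100A7A call was lost without Stat3 replicate 3 (0.0577) or Stat5a/b replicate 1 (0.0543), and that of S100A13 without Stat3 replicate 1 (0.0710) or 2 (0.0796) or Stat5a/b replicate 2 (0.0517) or 3 (0.0953). S100A10 lost its call with the DU145 arrays fitted alone (0.0604). Their adjusted p ran from 0.00822 to 0.657, 0.00437 to 0.852 and 0.000619 to 0.0604 over the alternatives. Dimmer probe sets of ANXA6 (0.48, adjusted p = 0.0168, against -0.12 for the brightest) and ANXA11 (0.15) went the other way.

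In CWR22Rv1, 5 members were higher and 3 lower with Stat5a/b than with Stat3 siRNA, 8 of 31 or 25.8%, where 10.8% of all genes were called, 4.7% higher and 6.05% lower. Arrays did not overlap for 13 of the 31, against 36.8% of all genes. ANXA1 (0.88 ± 0.11, adjusted p = 6.43e-05), S100P (0.71 ± 0.073, 9.56e-06), S100A6 (0.28 ± 0.053, 0.00233), ANXA4 (0.23 ± 0.049, 0.00562) and S100A11 (0.17 ± 0.053, 0.0491) were higher. ANXA2 (-0.58 ± 0.087, 0.000347), S100A10 (-0.33 ± 0.067, 0.00381) and ANXA5 (-0.20 ± 0.052, 0.0220) were lower. S100A11, at 10.89, 10.95 and 10.99 with Stat5a/b and 10.75, 10.75 and 10.82 with Stat3 siRNA, lost its call with any 1 of the 6 arrays left out (0.0568 to 0.181), and ANXA5 with any but Stat3 replicate 2 left out (0.0560 to 0.0880). The ANXA5 call was also lost with cyclic loess normalization. Dimmer probe sets ended the calls of S100A6 (0.732), S100A10 (0.0676, with a larger difference of -0.73 ± 0.23), ANXA1 (0.752) and ANXA2 (0.330 and 0.892), whose lowest adjusted p were 0.000130, 6.53e-05, 1.33e-06 and 7.72e-06. S100P was the only member called higher with Stat5a/b than with Stat3 siRNA in both lines.

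The annexin and S100 partners were set side by side. S100A10 and ANXA2 did not share a call against control: with Stat5a/b siRNA S100A10 fell in DU145 (-0.24), where ANXA2 was at 0.022 ± 0.087, and ANXA2 fell in CWR22Rv1 (-0.86), where S100A10 was at -0.096 ± 0.067. Against Stat3 siRNA in CWR22Rv1 both were lower. S100A11, at 11.79, 11.74 and 11.74 in the DU145 controls, was not called against control (0.079, 0.12, 0.0032 and 0.17 for Stat3 and Stat5a/b siRNA in DU145 and then in CWR22Rv1), while its partner ANXA1 was called in 3 of these 4. With Stat5a/b siRNA in CWR22Rv1 the S100A11 value lay near the threshold (adjusted p = 0.0640) and was called with quantile (0.0406) or cyclic loess normalization (0.0409), with dim genes left out (0.0283) and with a trended robust prior (0.00700), and that prior also called its rise in DU145 (0.0391). With Stat5a/b siRNA, S100A6 and ANXA11 both fell in DU145, whereas in CWR22Rv1 S100A6 rose and ANXA11 was at 0.13 ± 0.069. S100A8 and S100A9, which form the neutrophil protein calprotectin, were at 2.62 to 3.29 and 3.34 to 4.64 over all 18 arrays, and neither was called with any siRNA.

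Members with low values made few calls. All 6 group means lay under 6 for 14 members, of which S100A7A and S100A14 were called in at least 1 of the 8 siRNA comparisons. Of the other 17, 16 were called at least once. The exception was S100A16, at 6.24, 6.36 and 7.20 in CWR22Rv1 with Stat5a/b siRNA, where the third array stands apart (0.25 ± 0.18), and at 12.44, 12.19 and 12.45 against 12.06, 11.89 and 12.11 in DU145 with Stat3 siRNA. Without CWR22Rv1 Stat5a/b replicate 1, S100A16 was called higher than with Stat3 siRNA (0.70 ± 0.19, adjusted p = 0.0298). In all, 18 members were called in at least 1 of the 8 and 13 in none. The latter include S100A7 (psoriasin), S100A12, the glial S100B, the intestinal calcium carrier S100G, S100Z, S100A1, S100A5, ANXA9, ANXA10 and ANXA13. The share of all genes called in at least 1 of the 8, at any level or by level, was not counted. These counts therefore describe the members only and do not set them apart from other genes.

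Genes that work with the families were read from lists, and their counts stand beside the shares of all genes called, 15.8% and 24.3% with Stat3 and Stat5a/b siRNA in DU145 and 4.77% and 6.46% in CWR22Rv1. Of 45 measured partners and receptors of S100 proteins and annexins, 5 rose and 2 fell in DU145 on Stat3 knockdown (15.6%, near the background), while 3 rose and 13 fell there on Stat5a/b knockdown (35.6%). In CWR22Rv1 the counts were 0 and 2 (4.44%), and 1 and 0 (2.22%). CAPN1, a calpain protease (-0.70 ± 0.079, adjusted p = 9.17e-06), SYT1 (-0.87 ± 0.11, 2.89e-05) and the non-muscle myosin MYH10 (-0.40 ± 0.055, 6.40e-05) fell with Stat5a/b siRNA in DU145. SYT1 fell there with Stat3 siRNA too (-0.69 ± 0.11, 0.000373). CD44, the hyaluronan receptor, rose there with Stat3 siRNA (0.44 ± 0.072, 0.000444) and fell in CWR22Rv1 (-0.29 ± 0.072, 0.0295), and the lines differed by -0.73 ± 0.10 (0.00157). For Stat5a/b siRNA the difference between the lines was called for 11 of the 45 (24.4%, against 11.9% of all genes, 6.75% higher and 5.17% lower), all higher in CWR22Rv1, among them IQGAP1 (0.60 ± 0.092) and CAPN1 (0.66 ± 0.11). Ezrin (EZR), which S100P binds, was lower with Stat5a/b than with Stat3 siRNA in DU145 (-0.47 ± 0.071, 0.000139).

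Other calcium-binding lists were counted likewise. Of 43 other EF-hand and luminal calcium proteins, 3 rose and 11 fell in DU145 on Stat5a/b knockdown (32.6%) and 3 and 3 on Stat3 knockdown (14%). The CWR22Rv1 counts were 1 and 2 (6.98%), and 0 and 2 (4.65%). The first of these 4 shares stood above the 24.3% of all genes by only a few genes of the 43, an excess that was not tested. The other shares lay near the background. Calumenin (CALU) fell with Stat5a/b siRNA in both lines (-0.71 ± 0.070 and -0.47 ± 0.070), as did centrin CETN3 (-0.56 ± 0.070 and -0.48 ± 0.070). Reticulocalbin RCN2 fell with Stat3 siRNA in both (-1.32 ± 0.051 and -0.94 ± 0.051). Of 32 copines, ferlins and synaptotagmins, which like annexins bind membranes with calcium, Stat5a/b siRNA raised 1 and lowered 7 in DU145 (25%, near the background) and raised 3 in CWR22Rv1 (9.38%). Myoferlin (MYOF) fell in the former (-0.47 ± 0.049) and rose in the latter (0.21 ± 0.049), a difference between the lines of 0.68 ± 0.070 (2.87e-05). Of 9 genes of the plasminogen system, which ANXA2 with S100A10 serves, PLGRKT (0.59 ± 0.11), SERPINE2 (0.41 ± 0.080) and TFPI2 (0.70 ± 0.14) rose with Stat5a/b siRNA in DU145. That is 33.3% of a short list, against 24.3% of all genes, and none of the 9 was called with it in CWR22Rv1. With Stat3 siRNA in DU145 PLGRKT rose too (0.52 ± 0.11), while SERPINE2 fell (-0.26 ± 0.080). Of 23 genes of the epidermal differentiation complex on chromosome 1, outside the S100 family, 2 were higher and involucrin (IVL, -0.46 ± 0.088) was lower in DU145 given Stat5a/b siRNA (13%).

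Other gene groups moved in the same arrays. With Stat5a/b siRNA in DU145, 18 of 20 interferon-stimulated genes rose (median 1.22), among them CMPK2 (2.47 ± 0.14) and IRF9 (1.06 ± 0.075), and 0 of the 20 were called in CWR22Rv1, where the median was 0.13. E-cadherin (CDH1) fell in DU145 with Stat3 (-0.98 ± 0.078) and Stat5a/b siRNA (-1.18 ± 0.078). With Stat5a/b siRNA there, 3 of 10 epithelial and luminal markers (30%) and 2 of 6 basal markers (33.3%, DST and ITGB4) fell. Of all genes 24.3% were called, so in lists this small these 2 shares lie near the background. The summed linear level of the basal list ran from 2871 to 3078 against 3177 to 3577 in the controls. Of the leukocyte list CD14 fell in DU145 with Stat5a/b siRNA (-0.96 ± 0.15) and with Stat3 siRNA (-1.09 ± 0.15). Of the fibroblast list COL3A1 and LUM fell with Stat3 siRNA in CWR22Rv1, its sum running from 272 to 315 against 391 to 448. Of 5 neuroendocrine markers, 4 were higher in the CWR22Rv1 controls (80%, where 56.9% of all genes were called). ENO2 of this list fell in DU145 with Stat5a/b siRNA (-0.63 ± 0.12). The part of these shifts in the members' values was not tested.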

How the data were processed

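The authors deposited log2 expression values per probe set, made with RMA per the submitters' processing notes, which also name limma; versions, build and annotation are not given in the sources used here. The values ran from 1.54 to 14.3, with array medians of 5.16 to 5.20, and were used without further scaling. Of 54675 probe sets, 41091 carried 1 gene symbol, 1801 several, 11721 none, and 62 were controls. RMA makes arrays alike by quantiles, so a shift of most genes would not show.

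The model, run with limma 3.58.1 (lmFit and eBayes) in R 4.3.3, had a mean per group over all 18 arrays (12 residual and 3.82 prior degrees of freedom), tested on simulated data first. Tests were two-sided. Other probe sets were read from a fit of all probe sets except the controls. Only 3 arrays per group limit the precision; the quartiles of the SE over genes were 0.076 and 0.13. Promoters were searched in RefSeq windows.

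Array values are given for members called in any siRNA comparison and for those 2 or more log2 units apart between the line controls; of each list up to 3 called genes by adjusted p. Same-numbered control and Stat3 arrays of DU145 deviated from their group means together (r = 0.197, 0.158 and 0.328 over genes), so their replicate numbers were taken to pair them, from the data and not from the labels. The members and lists were chosen with earlier results of these data known, so no p is adjusted over a list alone. Alternatives were quantile and cyclic loess normalization, a filter (a group mean over 5), the mean of a gene's probe sets or its other probe sets, a trended robust prior, a replicate block, each line fitted alone, and each array left out.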

Additional observations from a re-analysis of the deposited data

Results flagged for a closer look

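For 8 members the Stat5a/b siRNA effect differed between the lines by a test of the difference itself (limma's interaction contrast, CWR22Rv1 minus DU145, on the log2 scale). The largest in size was S100A4 at 1.21, lower in 3 of 3 Stat5a/b arrays than in any control in DU145 and overlapping in CWR22Rv1. ANXA2 followed at -0.88, ANXA1 at 0.52 and S100A6 at 0.52, the last with opposite calls in the lines. ANXA11 was at 0.44, S100A13 at 0.40, S100A14 at 0.40 and ANXA4 at 0.36. Groups of 3 arrays are too small for a test of single arrays that stand apart. No explanation was tested.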

How the results depend on the processing

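Of 69 called values of members, 34 kept direction and call under every alternative and every array left out, among them S100P in both lines with Stat5a/b siRNA and ANXA5 in both with Stat3 siRNA. The count of members called with Stat3 siRNA in DU145, 5, was 3 with the mean of a gene's probe sets and 2 with DU145 fitted alone; that with Stat3 siRNA in CWR22Rv1, 2, was 4 with a trended robust prior; and that for the difference of the Stat3 effect between the lines, 0, was 1 with that prior (ANXA2) and 1 with the replicate block (S100A4). The cause was not tested. Over all genes, fitting each line alone moved the Stat3 siRNA calls from 3117 to 1549 in DU145 and from 944 to 2059 in CWR22Rv1. Which line had more calls with this siRNA thus depended on the pooling of the lines. Of the 210 values of members not called, 28 were called under at least 1 alternative or with an array left out, 10 of them only with an array left out. With each array left out in turn, counts ran from 4 to 6 and 10 to 11 for Stat3 and Stat5a/b siRNA in DU145, from 1 to 3 and 4 to 5 in CWR22Rv1, from 8 to 10 and 6 to 7 for Stat5a/b against Stat3 siRNA in DU145 and CWR22Rv1, from 0 to 1 and 7 to 10 for the differences between the lines, and from 19 to 22 between the controls. The lowest count for Stat3 siRNA in CWR22Rv1 came without its Stat3 replicate 2, which ended the ANXA3 call.

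Directions turned with a dimmer probe set of the gene. With Stat3 siRNA in DU145 this was ANXA1 (-0.40). With Stat5a/b siRNA in DU145 these were ANXA1 (-0.57, and -0.053 as the mean of its probe sets), ANXA6 (0.23) and ANXA11 (0.11). In CWR22Rv1 these were S100A6 (-0.00022) and ANXA2 (0.040). Against Stat3 siRNA they were S100A13 (0.039), ANXA6 (0.48) and ANXA11 (0.15) in DU145 and ANXA1 (-0.13) and ANXA2 (0.076) in CWR22Rv1. For the difference of the Stat5a/b effect between the lines they were S100A13 (-0.037) and ANXA2 (0.33), and between the controls S100A8 (0.24) and ANXA6 (0.16).

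Replicate numbers are shared by the groups. For Stat3 siRNA against control in DU145, where they were taken to pair the arrays, the main test did not use the pairing. There the replicate block called S100A4 and changed no other call. In the other comparisons within a line not every same-numbered pair of arrays had r over 0.1 (r from 0.012 to 0.33 over all 9 pairs in DU145, 5 over 0.1, and from -0.067 to 0.14 in CWR22Rv1, 1 over 0.1). For control and Stat5a/b arrays of DU145, r was 0.064, 0.12 and 0.17. The arrays were not taken as paired in these comparisons, but a lack of pairing was not shown. With the replicate block 6, 11, 2 and 7 members were called with Stat3 and Stat5a/b siRNA in DU145 and then in CWR22Rv1, 10 and 8 for Stat5a/b against Stat3 siRNA, 1 and 9 for the differences between the lines and 19 between the controls. Low values limit what can be read of the dim members, since their signal over background is unknown.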
